A study of Gallus gallus with 4 samples.

Results

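The first 6 hr of restored vision after form deprivation (FD) were followed in the posterior eye of the chick by setting the FD 6 hr array against the FD 0 hr array, 2 of the 4 arrays of the recovery study. Every array held pooled RNA from the retina, retinal pigment epithelium (RPE) and choroid of 5 male Leghorn/New Hampshire chicks, right eyes only. At FD 0 hr, tissue was taken from chicks whose right eye had worn a translucent occluder up to collection. At FD 6 hr, the occluder had been off for 6 hr of unobstructed vision, and at FD 24 hr for 24 hr. The control array came from chicks that wore no occluder. The FD 24 hr chicks were at post-hatch day 12 and the others at day 11, and the sample labels give 7 days of deprivation where the treatment protocol gives 10. By the treatment protocol, occluders came off when the 0 hr tissue was collected, and no clock hour is given. Collection 6 hr later fell at another point of the 12-hr light and dark cycle, so restored vision and time of day cannot be told apart. Because 5 animals went into a single array per condition, there is no replicate error, no test was run, and each difference below is between 2 pools.

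Form deprivation removes contrast and spatial detail from the retinal image, and a young eye answers by growing too long, which makes it myopic. When the occluder is removed, the elongated eye meets strong myopic defocus, slows its growth and thickens its choroid over the following days. Hours after a change in visual input, retinal neurons are known to switch on immediate early genes such as *EGR1*, and signals pass from the retina through the RPE to the choroid and sclera.

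Expression was given as log2 values, so a difference of 1 is a 2-fold difference in signal, and every difference below is FD 6 hr minus FD 0 hr unless another pair is named. A gene's value was the median of its probe sets, the groups of short DNA probes that read 1 transcript. Levels and differences were had for 13051 genes. A gene is called dim where its 4 arrays averaged no more than 6.28, a limit under which 60% of the single probe sets lay, which left 6101 genes above the limit and 6950 dim ones. A dim gene can still have 1 bright probe set, since its value is the median. Taken over all probe sets, the FD 6 hr array had a median of 5.73 and each other array 5.74.

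Recovery for 6 hr went with many small differences and few large ones. Of the 6101 genes above the dim limit, 50 were higher by at least 1 (0.820%) and 28 were lower by at least 1 (0.459%), so 1.28% lay past a 2-fold difference. The median difference over these genes was 0.04, with quartiles of -0.13 and 0.22, and 3404 genes were higher against 2636 lower. At a lower bar of 0.5, 439 genes were higher (7.20%) and 287 lower (4.70%). Probe sets that read the same gene gave a typical spread of 0.29 (SD of the difference within a gene, over the 3081 genes above the limit with several probe sets), which is a technical yardstick and not a replicate error. Among the 2033 brightest genes, 29 were higher by at least 1 and 8 lower, against 8 and 6 among the 2034 dimmest of those above the limit.

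**Figure D1:**
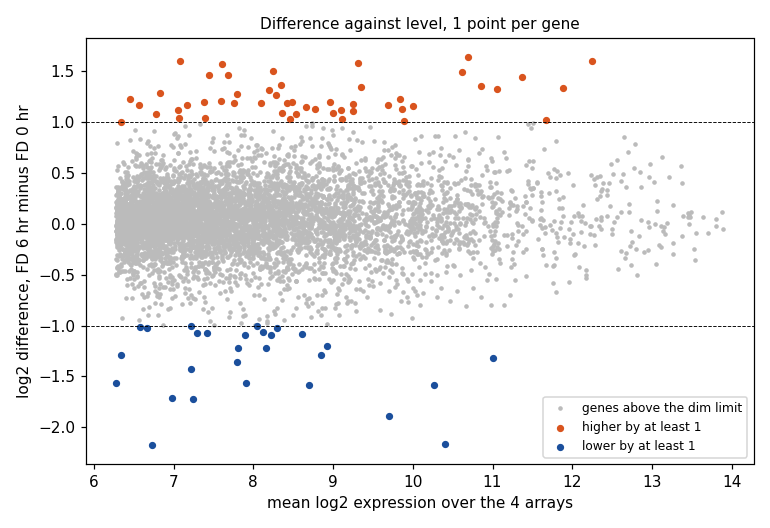
The log2 difference, FD 6 hr minus FD 0 hr, of each of the 6101 genes above the dim limit is plotted against its mean log2 level over the 4 arrays, with dashed lines at a difference of 1 in each direction. The 50 higher genes lie up to the brightest levels, and the 2 lowest points, *CD9* and *GNRH1*, lie at -2.17 and -2.16.

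The FD 0 hr array was at one end of the range for most of these genes. Of the 50 higher genes, 45 had their lowest level of the 4 arrays at FD 0 hr, 32 had their highest on the control array and 14 at FD 6 hr. As a group these 50 had a median of 9.10 in control eyes, 7.58 at 0 hr, 8.69 at 6 hr and 8.87 at 24 hr. Of the 28 lower genes, 25 were highest at FD 0 hr, and their medians in the same order were 7.18, 8.91, 7.66 and 7.75. The selection of these genes used the FD 0 hr value, so that its place at the end of the range is partly set by the choice. When FD 6 hr was set against the control array instead, 111 genes stood higher and 72 stood lower by 1 or more, and of these 5 and 1 were among the 50 and 28. The counts also lean on single probe sets, with 17 of the higher and 3 of the lower genes among the 1382 genes that have 2 or more probe sets of the same sign. Dropping probe sets that can pick up more than 1 transcript gave 27 higher and 25 lower genes, of which 26 and 17 were among the 50 and 28.

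Control probe sets also differed between the 2 arrays. The hybridisation controls, bacterial and phage transcripts added in fixed amounts, differed by -0.59 for *cre* to -2.86 for *bioC*. The poly-A controls, added before labelling, differed by -1.12 for *lys* to -2.15 for *dap*. Both sets of controls were high before recovery and in control eyes and low on both recovery arrays, and the study's quality report names these 2 pairs of arrays with different prefixes. The control probe sets for β-actin, which the study masked and which were kept out of gene values here, averaged 11.78 in control eyes, 10.61 at 0 hr, 11.72 at 6 hr and 11.61 at 24 hr. The signal at the 3′ end of β-actin exceeded that at the 5′ end by 3.72 at FD 0 hr and by 2.39 at FD 6 hr, with 2.54 on the control array and 2.85 at FD 24 hr, and for *EEF1A1* the gaps were 1.41 before and 1.12 after 6 hr of recovery. The FD 0 hr array thus had the widest gap for β-actin and *EEF1A1*. For *GAPDH* it did not stand apart, with gaps of 0.20 in control eyes, 0.21 at 0 hr, 0.15 at 6 hr and 0.21 at 24 hr. What part these array properties have in the gene differences was not tested.

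**Figure D2:**
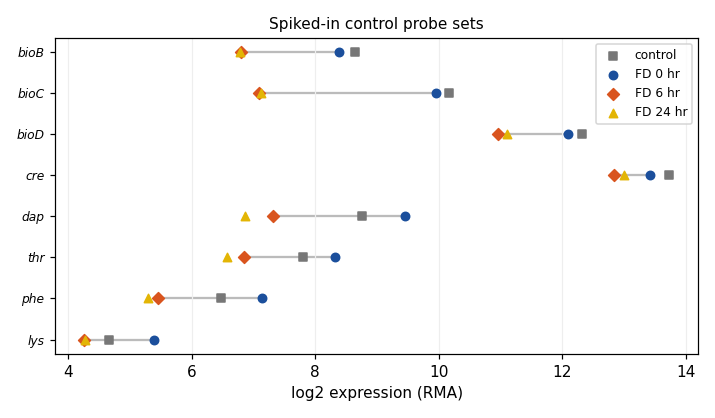
Mean log2 signal of the 8 spiked-in controls is shown on the 4 arrays, with a grey line joining FD 0 hr to FD 6 hr. All 8 are lower at FD 6 hr and FD 24 hr than at FD 0 hr and on the control array.

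Among the genes known to respond within hours to light, neural activity or stress, *SGK1*, a kinase that responds to glucocorticoids and osmotic change and regulates ion channels, stood farthest out. Its level was 10.80 in control eyes, 9.97 at 0 hr, 11.46 at 6 hr and 10.21 at 24 hr, a difference of 1.49. The FD 6 hr array was the highest of the 4. The gene rests on 2 probe sets that differed in size: one read 11.65, 11.63, 11.78 and 11.67 in the same order, and the other 9.95, 8.32, 11.15 and 8.76. Almost all of the difference therefore comes from the second probe set. *SIK1*, a kinase induced by cyclic AMP, stood at 9.06 in control eyes, 9.01 at 0 hr, 9.74 at 6 hr and 9.02 at 24 hr, so that FD 6 hr alone was raised, by 0.73.

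Transcription factors of the immediate early class were shifted less. Of 22 measured, 16 were higher and 6 lower, none by 1 or more, and the median was 0.08, where 6496 of all 13051 genes were higher, 6334 lower and the median was 0.00. *ID1*, an inhibitor of helix-loop-helix factors and a target of BMP signalling, read 9.17 in control eyes, 8.08 at 0 hr, 9.02 at 6 hr and 9.22 at 24 hr. *CEBPB*, a factor of inflammatory and metabolic responses, read 7.74, 7.39, 8.26 and 8.00, and *EGR1*, the zinc finger factor whose retinal expression depends on the sign of defocus in chicks, read 7.85, 7.58, 8.36 and 8.40. These 3 were higher at FD 6 hr by 0.94, 0.87 and 0.78. *EGR1* and *CEBPB* were above the control array at both recovery times, while *ID1* was near it. The *EGR1* value is the midpoint of a bright probe set, at 10.75, 10.71, 11.37 and 11.15, and a dim probe set, at 4.95, 4.45, 5.35 and 5.65. The bright probe set was highest at FD 6 hr and the dim probe set at FD 24 hr. *KLF6* was lower by 0.51. Of the 33 other rapidly induced genes, 22 were higher and 11 lower with the same median of 0.08, and after *SGK1* and *SIK1* the widest differences were 0.65 for *SPRED1*, an inhibitor of signalling from receptor kinases, and -0.60 for *TNFAIP3*, which limits NF-κB signalling. The *SPRED1* value comes from a dim probe set, and its brightest one, from 9.40 to 9.37, differed by -0.03. Above the dim limit, 3 of 15 factors were higher by at least 0.5 and 1 lower, and 2 and 1 of the 24 others, next to the 7.20% and 4.70% of all such genes. Among 13 glucocorticoid-responsive genes, 9 were higher, the median was 0.13, and *SGK1* was the one past 1, with *GLUL*, the glutamine synthetase of Müller glia, next at 0.49.

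The circadian clock list held 17 higher and 3 lower members of 21 measured, with a median of 0.15. *NFIL3*, a repressor that binds D-box elements and works with the clock, was at 8.82 in control eyes, 9.16 at 0 hr, 10.25 at 6 hr and 7.78 at 24 hr. It was higher by 1.09 at FD 6 hr than at FD 0 hr, the array next to it, and lowest at FD 24 hr. *RORB*, a nuclear receptor of photoreceptors and clock tissue, stood at 7.03, 7.13, 7.97 and 7.85, a difference of 0.84. For *CRY1*, a repressor of the clock, the levels were 10.02, 9.27, 10.05 and 9.76, with probe sets that did not all go the same way, and for *CLOCK* they were 8.86, 8.10, 8.77 and 8.30. *CRY1* and *CLOCK* thus returned to the level of the control array, by 0.78 and 0.67, while *RORB* was above it. Above the dim limit, 4 of 16 clock members were higher by at least 0.5 and none was lower by as much, beside 7.20% and 4.70% of all 6101 genes. Since these genes vary over the day, the different collection hour bears on this list directly, and its part was not tested.

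Photoreceptor genes differed in both directions. *OPN1LW*, the red-sensitive cone opsin, read 13.37 in control eyes, 11.06 at 0 hr, 12.66 at 6 hr and 11.91 at 24 hr. Its difference of 1.60 left it below the control array, and it was lower again at FD 24 hr. *CNGB3*, a subunit of the cone cyclic nucleotide channel, read 6.88, 5.88, 6.79 and 7.47, a difference of 0.91, and *GUCA1B*, an activator of guanylate cyclase, was higher by 0.68. The cone phosphodiesterase subunits went the other way, with *PDE6H* at 10.79, 10.97, 10.42 and 11.56 and *PDE6C* at 10.62, 11.41, 10.87 and 11.27, both lower at FD 6 hr, by 0.55 and 0.54 on the log2 scale. Of 15 cone genes measured, 8 were higher and 7 lower, with a median of 0.29. Of 12 rod genes, 11 were higher and 1 lower with a median of 0.14, led by *PDE6G* at 0.61 and the disc protein *PRPH2* at 0.58.

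*PPEF2*, a calcium-dependent phosphatase of photoreceptors, read 7.74 in control eyes, 7.11 at 0 hr, 8.57 at 6 hr and 7.32 at 24 hr, a difference of 1.46 with FD 6 hr the highest of the 4. *ABCA4*, the transporter that clears retinoids from outer segment discs, had levels of 6.15, 6.24, 6.85 and 6.23. *MYO3A*, a myosin of photoreceptors and hair cells, had 6.61, 6.70, 7.39 and 5.47. All 3 were highest at FD 6 hr, and *ABCA4* and *MYO3A* would be dim without that array. Among 14 genes of the visual cycle, which recycles 11-cis retinal between photoreceptors, RPE and Müller glia, 9 were higher and 5 lower with a median of 0.12. *RBP3*, the retinoid carrier between photoreceptors and RPE, was higher by 0.80, and *RDH5*, the retinol dehydrogenase of the RPE, and *STRA6*, the receptor for retinol binding protein, by 0.64 and 0.62. *RDH8L*, annotated as retinol dehydrogenase like, was lower, at 10.49 in control eyes, 11.76 at 0 hr, 10.44 at 6 hr and 11.31 at 24 hr. Of 16 genes of retinoic acid signalling, 12 were higher with a median of 0.09. *CYP26A1*, which degrades retinoic acid, was at 7.01, 6.76, 7.53 and 5.90, highest at 6 hr and lowest at 24 hr. For *ALDH1A2*, which makes it, the probe sets disagreed. The median one read 6.12, 5.86, 6.65 and 5.71, while the brightest read 9.07, 10.11, 10.01 and 9.57 and so differed by -0.10.

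Among the 50 higher genes were several that neurons express. *CHGA*, the secretory granule protein chromogranin A, read 11.76 in control eyes, 10.37 at 0 hr, 11.81 at 6 hr and 11.53 at 24 hr. Its difference was 1.44, with probe sets between 0.42 and 1.44 and the brightest at 0.95. *DPYSL2*, which acts on microtubules in growing axons, read 12.67, 10.68, 12.02 and 12.15. *PCDHGA2*, a clustered protocadherin of the neuronal surface, read 11.70, 9.40, 10.76 and 11.54. FD 0 hr was the lowest array for all 3, and *CHGA* was back at the control level at FD 6 hr. Amacrine cells, the inhibitory interneurons of the inner retina, had the highest median among 20 marker lists, 0.45, with 11 of 12 markers higher. *TFAP2B*, a transcription factor of these cells, had 10.02, 7.62, 8.82 and 9.37, the glycine transporter *SLC6A9* had 10.72, 8.79, 9.80 and 10.23, and the calcium-binding protein *CALB2* had 12.09, 10.78, 11.80 and 12.02. Each of these 3 was lowest at FD 0 hr and highest on the control array, with differences of 1.20, 1.01 and 1.02. They are the 3 of 10 amacrine markers above the dim limit that passed 1, beside 0.820% of the 6101 genes. The dopamine-synthesising enzyme *TH* was dim, at 5.83 and 5.87. The summed linear signal of the 12 amacrine markers was 18400 in control eyes, 9030 at 0 hr, 13600 at 6 hr and 15500 at 24 hr. In a bulk tissue such as this, fewer cells of a type, less RNA per cell and a different share of retina in the dissected pool cannot be told apart.

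Of 23 genes of synaptic vesicle release, 15 were higher and 8 lower, with a median of 0.13. The complexin of ribbon synapses *CPLX3* was higher by 0.71 and *SNCB*, or beta-synuclein, by 0.66. The synaptotagmin *SYT4* was higher by 0.60, from probe sets that differed by 0.03 and 1.18. The GABA and glycine transporter of vesicles *SLC32A1* was higher by 0.54. These were 4 of 17 members above the dim limit, and none was lower by 0.5 or more, beside 7.20% higher and 4.70% lower of the 6101 genes. *DNM1*, the dynamin that pinches off recycling vesicles, was at 10.29 in control eyes, 8.03 at 0 hr, 9.14 at 6 hr and 9.55 at 24 hr. Among 20 GABA and glycine receptor genes 12 were higher, led by *GABRA6* at 0.71, and among 19 glutamate receptor genes 14 were higher with 0.47 for *GRIK1* as the largest (its probe sets ran from -0.20 to 0.47), with medians of 0.08 and 0.09. For the 24 genes of dopamine and neuropeptides the split was 12 and 12 and the median 0.00. In that list the opioid precursor *PENK* was at 12.09, 11.20, 11.70 and 11.81 and *VIP* at 9.25, 8.76, 9.19 and 9.44, higher by 0.50 and 0.43.

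*GNRH1*, the precursor of gonadotropin-releasing hormone, had the second largest lower difference of all genes above the limit. Its level was 9.49 in control eyes, 12.19 at 0 hr, 10.03 at 6 hr and 9.90 at 24 hr, a difference of -2.16. The FD 0 hr array stood apart from the other 3, which lay within 0.54 of each other. The value rests on 1 probe set.

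**Figure D3:**
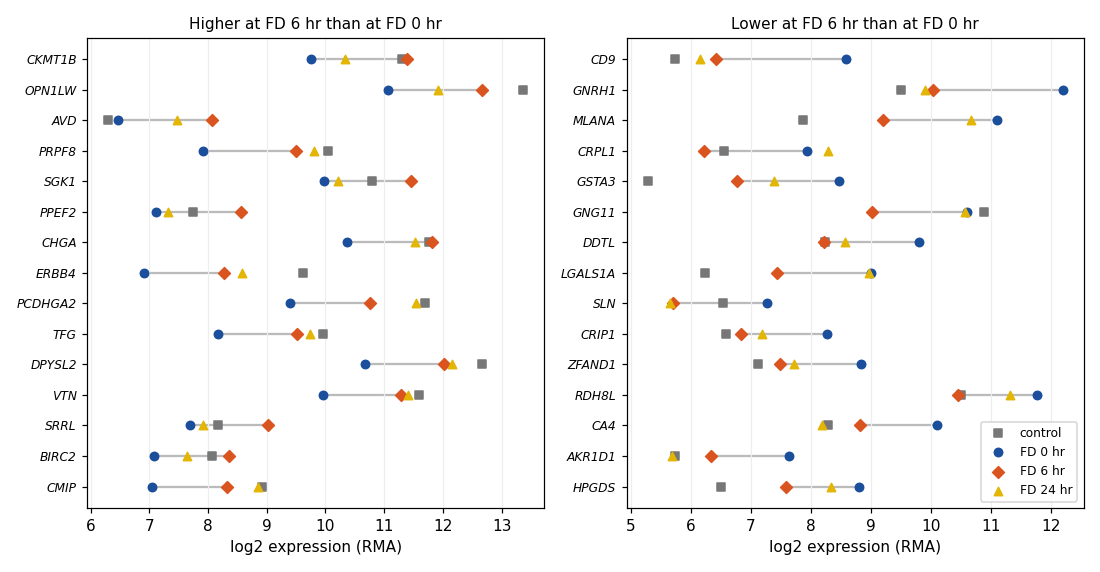
Log2 levels on the 4 arrays are shown for the 15 genes with the widest higher difference at FD 6 hr (left) and the 15 with the widest lower difference (right), taken from genes that are not dim and whose probe sets went 1 way. A grey line joins FD 0 hr to FD 6 hr, and FD 6 hr lies between FD 0 hr and the control array for 8 of 15 on the left and 10 of 15 on the right, while *AVD*, *SGK1*, *PPEF2* and *SRRL* on the left and *SLN* and *GNG11* on the right lie outside both by more than 0.5.

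Genes of energy metabolism went both ways. *CKMT1B*, the mitochondrial creatine kinase that passes phosphate from ATP to creatine, showed the largest higher difference, 1.64, from levels of 11.31 in control eyes, 9.75 at 0 hr, 11.39 at 6 hr and 10.33 at 24 hr. It matched the control array at FD 6 hr and was lower again at FD 24 hr. All 21 measured genes of glycolysis were above the dim limit, and 13 were higher, 7 lower, with a median of 0.16. Of these, 5 were higher by at least 0.5 and none lower by as much, beside 7.20% and 4.70% of the 6101 genes. The phosphofructokinase *PFKL* was at 11.05, 8.69, 9.85 and 10.40, and hexokinase 1, *HK1*, at 10.82, 8.73, 9.86 and 10.05. These 2 enzymes of the upper pathway were lowest at FD 0 hr and higher by 1.16 and 1.13, although the 3 probe sets of *HK1* ranged from 0.07 to 1.13. The glucose transporter *SLC2A1* and the aldolase *ALDOC* were higher by 0.59 and 0.57, while *GAPDH* differed by 0.04.

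Median differences were small for the complexes of the respiratory chain. Complex I had 19 higher and 15 lower of 34 with a median of 0.05, complexes II and III had 3 and 7 of 10 with -0.10, complex IV had 3 and 5 of 8 with -0.03 and ATP synthase had 6 and 8 of 14 with -0.03. Of 30 complex I members above the dim limit, 5 were lower and 2 higher by at least 0.5. For ATP synthase it was 2 and 1 of 11, beside 4.70% and 7.20% of the 6101 genes. Within a complex the members diverged. *NDUFV1*, in the NADH-binding part of complex I, was at 10.88, 9.74, 10.42 and 10.33 and higher by 0.68, whereas the accessory subunit *NDUFV3* was at 10.74, 11.49, 10.77 and 10.44. *NDUFS1*, a core subunit, was at 8.85, 8.81, 8.07 and 8.94 by its median probe set, but its 3 probe sets differed by -0.74, 0.30 and 0.90, so that no direction is given for it. In ATP synthase, the catalytic beta subunit *ATP5B*, at 11.94, 10.75, 11.73 and 11.37, was higher by 0.98, and *ATP5J2* and *ATP5H* were lower by 0.55 and 0.53. Fatty acid oxidation and PPAR genes had 8 higher and 16 lower of 25 with a median of -0.09, and their widest difference was -0.66 for *ECI2*, an isomerase of unsaturated fatty acids. The median of 20 cholesterol synthesis genes was 0.03, and the regulators *SREBF2* and *INSIG1* and the squalene synthase *FDFT1* were higher by 0.67, 0.56 and 0.53.

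Growth factor genes included *ERBB4*, a receptor for neuregulins, at 9.62 in control eyes, 6.91 at 0 hr, 8.28 at 6 hr and 8.58 at 24 hr. Its difference of 1.37 left it below the control array at both recovery times. Of 54 genes of growth factors and their antagonists, 34 were higher and 19 lower, with a median of 0.08, and of the 25 above the dim limit 6 were higher by at least 0.5 and none lower by as much, beside 7.20% and 4.70% of the 6101 genes. *BMP2*, a ligand whose expression in the chick RPE is known to depend on the sign of defocus, is dim by its median probe set, at 5.45, 5.85, 6.81 and 6.46, and was higher by 0.96. Its brightest probe set read 8.90, 8.60, 10.29 and 9.90, a difference of 1.69, and the remaining one, near 4.2 on each array, differed by -0.06. Both of the brighter *BMP2* probe sets were highest at 6 hr. *IGF1R*, the receptor for insulin-like growth factors, was at 9.97, 7.99, 8.73 and 9.45, and *TGFB2*, the main transforming growth factor beta of the eye, at 8.04, 7.64, 8.29 and 8.10. *DIO3*, which inactivates thyroid hormone, was at 8.66, 7.61, 8.80 and 8.64.

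Several further genes had large higher differences. *AVD*, the biotin-binding protein avidin, read 6.30 in control eyes, 6.47 at 0 hr, 8.07 at 6 hr and 7.47 at 24 hr. It was higher by 1.60 at FD 6 hr and above both the control and FD 0 hr arrays at 24 hr. *VTN*, or vitronectin, an adhesive protein of plasma and matrix, read 11.60, 9.95, 11.28 and 11.41. *BIRC2*, an inhibitor of apoptosis, read 8.07, 7.08, 8.36 and 7.65, with probe sets between 0.10 and 1.28. *TFG*, a protein of vesicle export from the endoplasmic reticulum, read 9.96, 8.17, 9.52 and 9.74, with probe sets between 0.11 and 1.35. *PRPF8*, the core of the spliceosome, read 10.05, 7.92, 9.50 and 9.80, with probe sets between 0.02 and 1.58. For these last 3 genes the difference rests on a part of the probe sets. *CMIP*, an adaptor of signalling, read 8.92, 7.05, 8.32 and 8.85, and *SRRL*, named by symbol alone, read 8.17, 7.70, 9.02 and 7.91.

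The remaining genes higher by at least 1 were, by difference, *LOC417536* and *CD82* at 1.23, *COPG1* at 1.21, *GPR37L1* and *NFASC* at 1.20, *HDAC4* and *AMY1A* at 1.19, *NACAD* at 1.18, *LSAMP* at 1.17, *CAMK2G* at 1.15, *NPEPPS* at 1.13, *SOGA3* and *ARHGEF6* at 1.12, *TMEM132C* at 1.09, *CACNG4* and *LOC769704* at 1.08, *SDC3* and *RNF141* at 1.04, *CLSTN3* and *GRAMD1B* at 1.03 and *CPEB3* at 1.0. Known neuronal proteins named here are the adhesion molecules *NFASC* and *LSAMP*, the calcium channel subunit *CACNG4* and the synaptic organiser *CLSTN3*. Their share was not set against that of all genes. A further 6 genes had probe sets that did not all go the same way, *TF* at 1.57, *EBF3* at 1.5, *NEURL1* at 1.46, *NBEA* at 1.29 and *ITPK1* and *UBXN4* at 1.17. Of the 50 genes, 27 rest on 1 probe set and 17 on several that all went the same way. Without its FD 6 hr level, *CPEB3* would be dim. Just short of the bar lay *KBTBD11* and *MGP* at 0.99.

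Above the dim limit, the largest difference of either sign was that of *CD9*, a tetraspanin of the cell surface that is found in many cell types. It was at 5.74 in control eyes, 8.59 at 0 hr, 6.42 at 6 hr and 6.15 at 24 hr, a difference of -2.17. *LGALS1A*, a galectin, read 6.24, 9.0, 7.44 and 8.97, with a difference of -1.56, and at FD 24 hr it was again at its FD 0 hr level. *CRIP1*, a LIM domain protein, was at 6.58, 8.26, 6.83 and 7.19, and *SLN*, sarcolipin, a regulator of the calcium pump in muscle, at 6.53, 7.26, 5.70 and 5.65. *CD9* and *CRIP1* at 6 hr lay nearer to the control array than to FD 0 hr, and *SLN* lay below both. Both *CD9* and *SLN* would be dim without their FD 0 hr levels.

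Pigment cell genes were mostly lower. *MLANA*, a melanosome protein of pigment cells, read 7.87 in control eyes, 11.09 at 0 hr, 9.20 at 6 hr and 10.66 at 24 hr. The difference was -1.89, and the level at 24 hr was higher again. In the melanosome list 13 of 19 members were lower, 6 were higher and the median was -0.19. After *MLANA* came *TRPM1*, a channel of melanocytes and of ON bipolar cells, at -0.59, the exchanger *SLC24A4* at -0.54 and tyrosinase, *TYR*, at -0.43. The 3 probe sets of *TRPM1* ran from -0.59 to 0.35 and those of *SLC24A4* from -1.46 to 0.20. The pigment enzymes *TYRP1* and *DCT* differed by -0.19 and -0.25, and *PMEL*, which forms the melanosome's fibrils, by 0.10. The 10 pigment cell markers split into 4 higher and 6 lower, and *MLANA* alone differed by 0.5 or more. Their summed linear signal was 5760 in control eyes, 12900 at 0 hr, 10000 at 6 hr and 10700 at 24 hr. *RPE65*, the retinoid isomerase that defines the RPE, differed by 0.23, from 13.09 to 13.32, and the 12 RPE markers had a median of 0.12.

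Glutathione and detoxification genes were the one list in which 2 members above the dim limit were lower by at least 1. *GSTA3*, a glutathione S-transferase, was at 5.28 in control eyes, 8.47 at 0 hr, 6.76 at 6 hr and 7.39 at 24 hr, and *GSTA4* at 7.63, 9.29, 8.20 and 7.77. Both were highest at FD 0 hr and lowest on the control array. Their differences were -1.71 and -1.09, and since alpha-class transferases are close paralogs, their probe sets may read more than 1 of them. Catalase, *CAT*, was at 8.09, 9.17, 8.49 and 7.61, with probe sets from -0.68 to 0.41, and *GPX8*, a peroxidase of the endoplasmic reticulum, which is dim, at 4.92, 7.41, 6.65 and 5.75. Of the 33 genes of oxidative stress and glutathione, 20 were lower, 13 were higher and the median was -0.11, and of the 25 above the dim limit 6 were lower and 3 higher by at least 0.5, beside 4.70% and 7.20% of the 6101 genes. *DDTL*, related to a tautomerase, was at 8.23, 9.80, 8.22 and 8.57, from probe sets with differences of -2.88 and -0.28.

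Lipid and steroid enzymes were among the lower genes as well. *HPGDS*, the hematopoietic prostaglandin D synthase, was at 6.5 in control eyes, 8.80 at 0 hr, 7.58 at 6 hr and 8.33 at 24 hr. *PTGDS*, the lipocalin-type enzyme that makes the same prostaglandin, was at 9.90, 10.56, 11.46 and 10.71. The 2 synthases thus differed in opposite directions, by -1.23 and 0.90. *AKR1D1*, the steroid 5-beta-reductase of bile acid synthesis, was at 5.73, 7.63, 6.34 and 5.68, a difference of -1.29. Without its FD 0 hr level *AKR1D1* would be dim. Of the 13 measured genes that the study listed as the core of its bile acid pathway, 8 were lower and 5 higher, and the median was -0.05. That list was chosen by the study on these same arrays, so it is no independent evidence of a direction. In it *AKR1D1* alone passed 1, and the next in size were *ABCB11*, the bile salt pump, at -0.28 and *CH25H*, the cholesterol 25-hydroxylase, at 0.28.

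Several genes of vessels and stroma were lower. *EDNRA*, the endothelin A receptor of vascular smooth muscle, read 6.98 in control eyes, 9.22 at 0 hr, 8.13 at 6 hr and 7.26 at 24 hr. *CDH5*, the cadherin of endothelial junctions, read 8.09, 9.44, 8.54 and 7.90, and *FLI1*, a transcription factor of endothelium and blood cells, read 7.84, 9.36, 8.34 and 7.65. *CA4*, a carbonic anhydrase on capillary and other membranes, read 8.28, 10.10, 8.81 and 8.19. In all 4 of them the FD 0 hr array was the highest, and the 24 hr level lay nearer to control eyes than the 6 hr level did. The differences were -1.09, -0.90, -1.02 and -1.29. *MYH11*, the smooth muscle myosin, was at 8.10, 9.81, 8.91 and 8.57 and *MMP2*, a matrix metalloproteinase, at 9.16, 10.61, 9.76 and 8.83, with differences of -0.90 and -0.85. Smooth muscle markers as a whole split into 3 higher and 3 lower of 6 with a median of -0.02. *TAGLN*, transgelin, was higher by 0.50 and the myosin kinase *MYLK* by 0.27, though the 4 probe sets of *MYLK* ran from -0.51 to 0.45. Of 31 endothelin, nitric oxide and vascular genes, 19 were lower, 12 were higher and the median was -0.07, and *RAMP2*, a partner of the adrenomedullin receptor, was higher by 0.88. Of 9 fibroblast and stroma markers, 7 were lower with a median of -0.33, but 6 of the 9 are dim, among them osteoglycin, *OGN*, at 5.86 and 4.77. The collagen *COL1A1* was higher, from 9.26 to 9.68, and decorin, *DCN*, lower, from 11.78 to 11.50. Summed linear signal of the stroma markers was 3760, 4640, 4110 and 3780 on the 4 arrays. Of 10 endothelium markers, 4 were higher and 6 lower, with a median of -0.07. Besides *CDH5*, those above the dim limit were *ESAM* at -0.20, *TIE1* at -0.085 and *SOX18* at 0.12. *PECAM1*, *KDR* and *VWF*, which also define endothelium, are dim and differed by 0.13, -0.20 and 0.04.

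The other genes lower by at least 1 were *CRPL1* at -1.72, *ZFAND1* at -1.36, *PSMG1*, a chaperone of proteasome assembly, at -1.22, *HMGN5* at -1.20, *ABRACL* at -1.08, *FHL2* and *GOPC* at -1.07, *LOC419390* at -1.06 and *BAG1* and *ZPBP1* at -1.0, besides *PMP22* at -1.02 and *MED27* at -1.01, whose probe sets disagreed. *CRPL1* read 6.55 in control eyes, 7.94 at 0 hr, 6.22 at 6 hr and 8.28 at 24 hr, and *ZFAND1* read 7.12, 8.84, 7.48 and 7.72. Of the 28 lower genes, 23 rest on 1 probe set and 3 on several that went the same way, among them *HMGN5* with probe sets from -1.20 to -0.27. The nearest genes outside the bar were *ANXA1*, annexin A1, *RPL29* and *UGCG*, the glucosylceramide synthase, at -0.99.

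Genes whose FD 6 hr level lay outside all 3 other arrays were few, and this grouping was made after the values were seen. By a gap of at least 0.5, 32 of the 6101 genes were above all others at FD 6 hr (0.525%) and 11 below (0.180%), against 184 and 241 for the FD 0 hr array, 217 and 272 for the control array and 28 and 94 for FD 24 hr. With a gap of at least 1, *NFIL3* and *LOC769704* were above and *GNG11* below. *GNG11*, a gamma subunit of heterotrimeric G proteins, was at 10.88 in control eyes, 10.59 at 0 hr, 9.01 at 6 hr and 10.56 at 24 hr. The other 3 arrays lay within 0.32 of each other, so that this was a dip at FD 6 hr, of -1.58 against FD 0 hr, read by 1 probe set.

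*CD82*, a tetraspanin like *CD9*, was at 9.84 in control eyes, 9.57 at 0 hr, 10.80 at 6 hr and 9.15 at 24 hr. *SERPINE3*, a serpin, was at 6.12, 6.64, 7.44 and 6.46, and *F3*, tissue factor, which starts coagulation, at 7.93, 9.01, 9.61 and 8.73. *INPP5B*, a phosphatase of inositol lipids, was at 9.78, 10.29, 10.89 and 9.43. All 4 were highest at FD 6 hr, by gaps of 0.96, 0.80, 0.60 and 0.60 to the next array. *TF*, transferrin, was also highest by its median, by 0.91, at 7.47, 6.91, 8.48 and 7.57, though 1 of its 4 probe sets did not differ. Its brightest probe set read 9.93, 9.63, 10.02 and 9.51, a difference of 0.39, and so was near the control array at FD 6 hr. Others were *GEM*, a small GTPase induced by activity, at 7.55, 7.99, 8.51 and 7.63 and *ATRX*, a chromatin remodeller, at 6.98, 7.13, 7.72 and 6.95, with probe sets from -0.29 to 0.71. On the lower side, *HMGN5* was at 8.96, 9.27, 8.07 and 9.38, *NAPA*, which disassembles SNARE complexes, at 8.72, 8.35, 7.49 and 8.47 and *FGF12*, an intracellular partner of sodium channels, at 9.26, 9.13, 8.34 and 9.41. At 24 hr all 3 were above their 0 hr level. The brightest of the 3 probe sets of *HMGN5* read 11.96, 12.19, 11.92 and 12.16, a difference of -0.27, and so was near the control array at FD 6 hr.

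**Figure D4:**
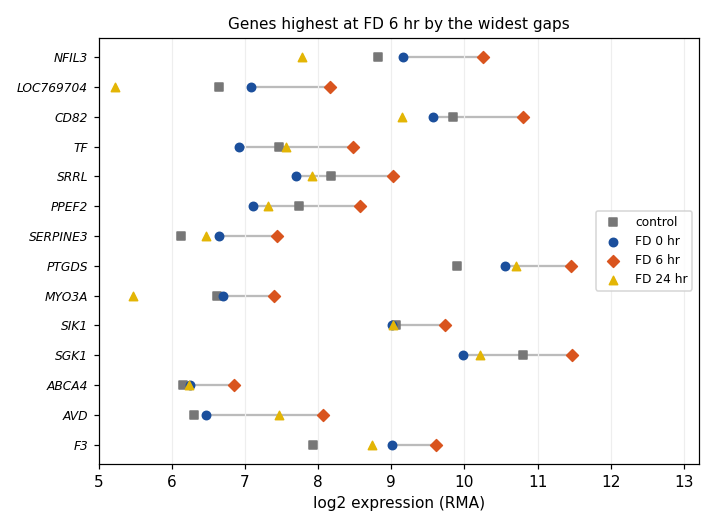
Log2 levels on the 4 arrays are shown for the 14 genes that were highest at FD 6 hr by the widest gap to the next array, with a grey line from FD 0 hr to FD 6 hr. *NFIL3* leads with a gap of 1.09, and the FD 24 hr level lies below FD 0 hr for *NFIL3*, *LOC769704*, *CD82*, *SERPINE3*, *MYO3A*, *ABCA4* and *F3*.

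The stress lists showed small medians. Heat shock proteins had 19 higher and 12 lower of 32 with a median of 0.07, and the ER stress list 14 and 9 of 23 with 0.09. The ER chaperone *HSPA5*, in both lists, was at 7.40 in control eyes, 7.31 at 0 hr, 7.98 at 6 hr and 8.33 at 24 hr, so that it was higher at both recovery times than before. *HSPA4L* was higher by 0.60 and *HSPA8* by 0.42, while *ASNS*, the asparagine synthetase, was lower by 0.51 on the log2 scale, at 7.30 and 6.79. The hypoxia list of 24 had a median of 0.03 with the carbonic anhydrase *CA9* higher by 0.66 and the mitophagy gene *BNIP3* at -0.65.

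Ion and water transport, with 17 higher and 22 lower of 39 and a median of -0.03, held 4 of 18 members above the dim limit that were higher by at least 0.5, beside 7.20% of the 6101 genes. They were *SGK1*, *ATP1B1*, a beta subunit of the sodium pump, at 11.25, 10.72, 11.43 and 11.20, the potassium channel *KCNJ2* at 8.66, 7.24, 7.90 and 8.21 and the chloride channel protein *CLIC6* at 7.85, 7.13, 7.69 and 7.16. For all 4 the FD 0 hr array was the lowest. None but *SGK1* and *ATP1B1* exceeded the control array at FD 6 hr.

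Most other lists had a median near that of all genes. Ribosomal proteins had 22 higher and 37 lower of 61 with a median of -0.09, led by *RPL29*, whose 5 probe sets ran from -0.99 to 0.02. Splicing factors had 24 and 18 of 42 with 0.05, the cell cycle list 11 and 20 of 32 with -0.08, matrix genes 24 and 32 of 57 with -0.04, actin and contractile genes 12 and 17 of 29 with -0.03 and crystallins 7 and 7 of 15 with 0.00. Complement and coagulation had 20 and 21 of 43 with 0.00 and interferon and antigen presentation 12 and 16 of 28 with -0.07, in which *IFI6*, an interferon-induced protein, was at 8.09, 9.97, 8.99 and 8.63. Non-visual opsins and melatonin genes had 9 and 5 of 14 with 0.02, and *ASMT*, the last enzyme of melatonin synthesis, was lower, from 8.44 to 7.91. None of these lists had a member above the dim limit that was higher or lower by 1 or more, beside 1.28% of the 6101 genes. At the bar of 0.5, 5 of 22 matrix genes above the dim limit were lower and 2 higher. Of 19 such actin and contractile genes, 3 were lower and 1 higher, beside 4.70% and 7.20% of the 6101 genes. Among dim members, *TFPI* of the coagulation list differed by -1.055, with probe sets from -1.37 to -0.54, and *OGN* of the matrix list by -1.09.

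**Figure D5:**
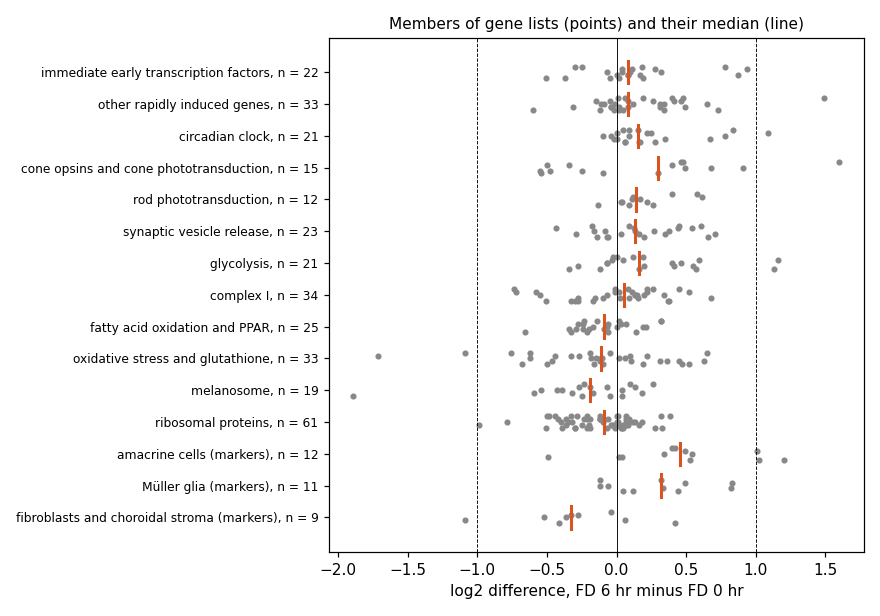
Each point is the log2 difference, FD 6 hr minus FD 0 hr, of 1 measured member of a gene list, dim members included, each bar is the median of its list, and dashed lines mark a difference of 1. Amacrine cell markers have the highest median shown, 0.45, and fibroblast and stroma markers the lowest, -0.33.

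The labelled tissue was checked against markers. Retina and RPE had markers well above the dim limit on both arrays. *VSX1* of bipolar cells was at 11.59 and 11.83, and *RLBP1* of Müller glia and RPE at 12.03 and 12.47. The check was weaker for the choroid. *DCN* of stroma was bright, as given above, but only 3 of 9 stroma markers and 4 of 10 endothelium markers were above the limit. Müller glia markers had 8 higher and 3 lower of 11 with a median of 0.32 and summed signals of 26200 in control eyes, 20300 at 0 hr, 27000 at 6 hr and 23800 at 24 hr. Ganglion cell markers had 7 and 5 of 12 with 0.09, and bipolar cell markers 5 and 2 of 7 with 0.24. Above the dim limit, 4 of 10 ganglion cell markers were higher by at least 0.5, beside 7.20% of the 6101 genes. None was lower by as much, and *EBF3* and *NEFM* among the higher ones had probe sets that disagreed. Red blood cell markers had 7 and 2 of 9 with a median of 0.22, and the alpha globin *HBA1* read 12.55, 12.09, 12.94 and 13.01, highest at both recovery times, with probe sets that ran from -0.11 to 0.85. Skeletal muscle markers, which would mark extraocular muscle, were dim for 9 of 11 with a median of -0.02, scleral cartilage markers for 8 of 9 with -0.11 and lens markers for 7 of 11 with 0.02. The rod opsin gene was not matched on the array's annotation and is not analysed here.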

How the data were processed

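RNA pools were hybridised to 4 Affymetrix chicken arrays, 1 for control eyes and 1 for each recovery time (0, 6 and 24 hr). The authors summarised and normalised the arrays with RMA in Expression Console, and the deposited values are log2 expression with 2 decimals for each probe set. MAS5 is also named in the submitters' processing notes. The paper describes modelling these arrays jointly with those of an earlier form deprivation study. Whether the deposited values come from that run or from these 4 arrays alone is not known. A log2 value near the background understates differences.

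Of 38535 probe sets, 27168 with exactly 1 annotated gene were kept, 177 with several and 11180 with none were left out, and 10 control probe sets served as controls only. A gene's value was their median, and differences of 1 (2-fold) were counted among genes whose mean exceeded that of 60% of the probe sets. Of 13051 genes, 12872 were in the RefSeq table for GRCg7b, used for names and chromosomes. No test, p-value or replicate error can be had from 1 array per condition, and their number limits the precision. Named with levels were the 15 widest differences in each direction whose probe sets had 1 sign, up to 4 members of each list with the widest difference, and other genes past 1 by difference. Genes named for being highest or lowest at FD 6 hr, the marker genes and a few further list members were chosen after their values were seen. The members and the 37 gene lists and 20 marker lists were chosen with earlier results of these data known. The counting was tested on simulated data, and the planned promoter motif search was not run because no promoter sequence was at hand. Alternatives were other normalisations, probe set summaries, dim limits and the control array as reference. The computations used Python 3.11.15, NumPy 2.4.6 and pandas 2.3.3, and plots Matplotlib 3.10.9.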

Additional observations from a re-analysis of the deposited data

How the results depend on the processing

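The count of 50 higher and 28 lower genes was 47 and 32 after quantile normalisation, 52 and 26 after centring each array, 49 and 32 after centring along level and 35 and 27 with probe sets averaged. Taking each gene's brightest probe set gave 63 and 49, from 8389 genes, of which 30 and 24 were among the genes counted before. The brightest probe set differed little for some of the genes lost, as for *AMY1A* (0.02), *HK1* (0.07), *CAMK2G* (0.07) and *SGK1* (0.15). Leaving out probe sets with possible reads of several transcripts, the counts were 27 and 25, from 4938 genes. Without a dim limit they were 53 and 43, and with 2 or more probe sets of the same sign 17 and 3, from 1382 genes. Limits at the 50th and 70th percentiles gave 52 and 33, and 45 and 23. Including the control probe sets, an alternative chosen after seeing the data, gave 51 and 28, as *ACTB* moved from 0.31 to 1.69. Among genes past 1, direction turned for *EBF3* (-0.76), *PMP22* (0.31) and *MED27* (0.30) with the brightest probe set and for *NEURL1* (-0.26) without probe sets of several transcripts. Of the genes named under that bar, *NDUFS1* (0.30), *ALDH1A2* (-0.10) and *SPRED1* (-0.03) also turned with the brightest probe set. The cause was not tested.

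Set against the control array instead, 111 genes were higher at FD 6 hr and 72 lower, of which 5 and 1 were among the genes counted before. The difference, FD 6 hr minus control, then had the opposite sign for *ERBB4* -1.34, *NFASC* -1.34, *PFKL* -1.20, *TFAP2B* -1.20, *NPEPPS* -1.18, *DNM1* -1.14, *EBF3* -1.03, *HK1* -0.96, *PCDHGA2* -0.94, *SLC6A9* -0.92, *LSAMP* -0.78, *GPR37L1* -0.77, *NACAD* -0.73, *HDAC4* -0.73, *OPN1LW* -0.71, *CAMK2G* -0.70, *DPYSL2* -0.65, *SDC3* -0.61, *CMIP* -0.60, *PRPF8* -0.55, *COPG1* -0.51, *GRAMD1B* -0.46, *TFG* -0.44, *TMEM132C* -0.43, *NEURL1* -0.38, *VTN* -0.32, *CACNG4* -0.32, *CLSTN3* -0.29, *CALB2* -0.29, *AMY1A* -0.27, *ITPK1* -0.18, *ARHGEF6* -0.14. The same held for *OGN* 0.03, *PSMG1* 0.07, *CRIP1* 0.25, *FHL2* 0.30, *ZFAND1* 0.36, *FLI1* 0.50, *CA4* 0.53, *GNRH1* 0.54, *GSTA4* 0.57, *AKR1D1* 0.61, *CD9* 0.68, *BAG1* 0.73, *PMP22* 0.75, *ZPBP1* 0.78, *ABRACL* 1.05, *HPGDS* 1.08, *EDNRA* 1.15, *LGALS1A* 1.20, *MLANA* 1.33, *GSTA3* 1.48. For these genes the FD 6 hr level lay between those of FD 0 hr and the control array. No paired analysis was possible because each condition has 1 array. A single array per condition, the spiked-in controls that differ between pairs of arrays, the collection hour and signal near the background for 6950 dim genes limit every difference.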
